A study of Mus musculus with 8 samples.

Results

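Cytochrome c oxidase, complex IV of the mitochondrial respiratory chain, was examined through 36 of the 23930 genes of the expression table. They are the rows whose symbol begins with Cox or Coa followed by a digit, without symbols containing -ps, together with Ndufa4, Sco1, Surf1, Cmc1, Cmc2, Pet100, Taco1, Higd2a and Lrpprc. Sco2, which the same rule names, was not analysed here, and neither were the subunit Cox7c and Cox7a2l, Cox16, Cox17, Cox20 and Coa1, so the sums and medians below leave them out. By role the 36 genes comprise 13 structural subunits, 4 subunit isoforms best known from other tissues, and 19 assembly factors. Marker genes of muscle fibres (Acta1, Ckm, Tnnt3, Myh4, Myh1, Pvalb and Atp2a1, all 7 present) were high in every library. They summed to 85101 to 137876 RPM in KO and 110458 to 166957 RPM in WT. RPM denotes reads per 1000000 reads of a library.

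The muscle was the tibialis anterior, which lifts the foot and is built mainly of fast fibres, of KO mice (Inducible HSA-Cre/Lox-SDHC) and of WT littermates (Inducible HSA-Cre/No Lox), with 4 libraries in each group. HSA-Cre is a recombinase under a skeletal actin promoter, so Sdhc is targeted in muscle fibres while endothelial, connective tissue and other cells of the muscle keep it. All mice of both groups received tamoxifen when 12 weeks old and were sampled after another 20 weeks. The WT mice therefore also carry the recombinase and were exposed to the drug, but have no floxed allele. The genotype labels write the strain as C57BL/6 for WT and as C57BL/7 or C57BL/8 for KO, whereas the growth protocol names C57/B6 for all mice. The targeted transcript, Sdhc, stood at 17.1, 14.5, 22.8 and 49.4 RPM in KO 1 to KO 4, against 574, 693, 795 and 722 RPM in WT 1 to WT 4 (exact permutation test, two-sided p = 0.0286, which is as low as 4 against 4 allows).

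Complex IV passes electrons from cytochrome c to oxygen and pumps protons while doing so. Its catalytic core subunits are encoded by mitochondrial DNA and were not analysed here, whereas the surrounding subunits are nuclear genes. Several of the nuclear subunits exist as isoform pairs, in which a heart and skeletal muscle form replaces a form found in most tissues. Assembly requires heme A, copper delivered by dedicated chaperones, and factors that help the core subunits to be translated and inserted.

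Libraries held 4774602 to 7281574 reads. The female-specific RNA Xist reached 98.9 RPM in KO 4 and 77.3 RPM in WT 1, against no more than 0.334 RPM in the other 6. The labels do not give the sex of the mice. Each value comes from a short amplified segment of a gene, so RPM depends on how well that segment amplifies and levels are not compared between genes. The median of all 11087 tested genes was 0.13 higher in KO than in WT in log2 units, and every log2 fold change below is KO minus WT relative to that median. The p-values, from limma on log2(RPM + 1), ask whether KO and WT differ and not whether a gene departs from that median. In whole muscle, more cells of a type and more RNA in each cell cannot be told apart.

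Promoter windows from RefSeq (GRCm38.p6) are shown for the isoform pairs Cox8b and Cox8a and Cox7a1 and Cox7a2, because Cox8b and Cox7a2 had the highest subunit fold changes and each belongs to a pair of a muscle form and a widespread form. Each window runs from 250 bases before the annotated start to 30 bases after it, 5′ to 3′ on the gene's strand. Capitals mark matches, on either strand, to 5 searched motifs: TATAAA (the TATA box), CAGCTG (an E-box core that myogenic factors bind), CCGGAAG (an ETS core of the kind bound by GABP, also called NRF-2), the NRF1 core (GCGC, any base, then TGCGC) and GGGCGG (Sp1).
Cox8b (chr7:140900417-140900696, minus strand): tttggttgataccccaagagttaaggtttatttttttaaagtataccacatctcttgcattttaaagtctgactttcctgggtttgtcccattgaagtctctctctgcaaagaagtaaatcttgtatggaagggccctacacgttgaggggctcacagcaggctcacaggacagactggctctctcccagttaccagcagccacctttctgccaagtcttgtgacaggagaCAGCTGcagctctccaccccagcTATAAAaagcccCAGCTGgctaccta
Cox8a (chr19:7217587-7217866, minus strand): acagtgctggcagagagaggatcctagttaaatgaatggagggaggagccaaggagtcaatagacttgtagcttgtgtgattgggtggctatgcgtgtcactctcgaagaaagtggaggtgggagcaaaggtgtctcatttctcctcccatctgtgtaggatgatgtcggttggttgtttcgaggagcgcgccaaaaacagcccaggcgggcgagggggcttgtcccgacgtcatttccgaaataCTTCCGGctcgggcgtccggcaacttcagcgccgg
Cox7a1 (chr7:30183921-30184200, plus strand): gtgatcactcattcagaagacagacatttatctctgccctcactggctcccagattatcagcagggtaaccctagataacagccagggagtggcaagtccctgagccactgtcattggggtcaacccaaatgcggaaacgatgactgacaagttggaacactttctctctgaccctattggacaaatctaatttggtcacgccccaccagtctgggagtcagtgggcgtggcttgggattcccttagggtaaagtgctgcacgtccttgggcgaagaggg
Cox7a2 (chr9:79759824-79760103, minus strand): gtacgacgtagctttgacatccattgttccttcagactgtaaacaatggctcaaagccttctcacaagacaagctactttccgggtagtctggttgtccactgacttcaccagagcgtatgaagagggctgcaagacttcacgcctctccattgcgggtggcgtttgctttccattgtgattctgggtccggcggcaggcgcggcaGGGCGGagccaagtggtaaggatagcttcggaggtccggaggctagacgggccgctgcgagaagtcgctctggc
The Cox8b window holds TATAAA at bases 255 to 260 and CAGCTG at bases 232 to 237 and 267 to 272, counted from 1 at its 5′ end, and has 1 CG dinucleotide. Bases 1 to 250 of a window lie before the annotated start. The TATAAA of Cox8b and its CAGCTG at bases 267 to 272 therefore lie after that start, not upstream of it. The Cox8a window holds CCGGAAG, read on the opposite strand, at bases 246 to 252, and has 17 CG dinucleotides. The Cox7a2 window holds GGGCGG at bases 207 to 212 and has 18 CG dinucleotides, while the Cox7a1 window has 6 and none of the 5 motifs. Among all 32851 RefSeq windows of the same length, 13.1% hold TATAAA, 14.9% CAGCTG, 8.45% CCGGAAG, 4.41% the NRF1 core and 34.7% GGGCGG. Windows were found for 29 of the 36 genes, of which 3 hold TATAAA, 1 CAGCTG, 10 CCGGAAG, 1 the NRF1 core and 17 GGGCGG. The 10 with CCGGAAG are those of Cmc1, Coa4, Cox10, Cox15, Cox6a1, Cox6b1, Cox8a, Pet100, Sco1 and Surf1. These matches describe the letters of the windows only.

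The first question was whether loss of Sdhc shifted complex IV transcripts. Most lay somewhat higher in KO, by less than 2-fold, and none passed the test. Of the 36 genes, 33 had at least 1 RPM in at least 4 libraries and were tested, and 0 of them passed in limma at an adjusted p under 0.05, where 0.803% of all tested genes passed. The edgeR quasi-likelihood test on recovered reads also called 0 of the 33 (0.83% of all tested genes). At an unadjusted limma p under 0.05, 9 were higher in KO (Cox8b, Cox7a2, Cox6a1, Cox6b1, Ndufa4, Cmc1, Cox19, Cox14 and Coa4), a share of 27.3% where the background was 13.1%. They comprise 5 of the 13 subunits and 4 of the 19 assembly factors. Leaving out single libraries gave 7 to 11 such genes. The background in those fits ran from 8.17% without WT 3 to 14.2% without KO 4. In the other direction Coa7 alone reached that level, 3.03% of the 33 where the background was 3.07%. RPM was then divided by TMM factors (trimmed mean of M), a scaling that sets aside the genes differing most between libraries. On that scale 6 of these 9 were still under 0.05, against 6.12% of all tested genes. Cox6a1, Cox6b1 and Ndufa4 were no longer among them, and Coa7 was still lower, against 7.2% of all tested genes.

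The relative log2 fold changes of the 33 genes had a median of 0.09, where the median of all tested genes is 0 by construction, and 23 of the 33 were above 0. The 13 subunits had a median of 0.18 and ranged between -0.16 and 0.42, with 11 above 0. The 19 assembly factors had a median of 0.06, a wider range of -0.54 to 0.65, and 11 above 0. With TMM factors these medians were 0.17 for the subunits and 0.05 for the assembly factors. Within the assembly factors, the 6 genes grouped under copper delivery had a median of 0.08 and the 3 heme A genes 0.06. The 5 genes of core subunit maturation and translation had a median of 0.12, and the 5 others -0.08.

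**Figure D1:**
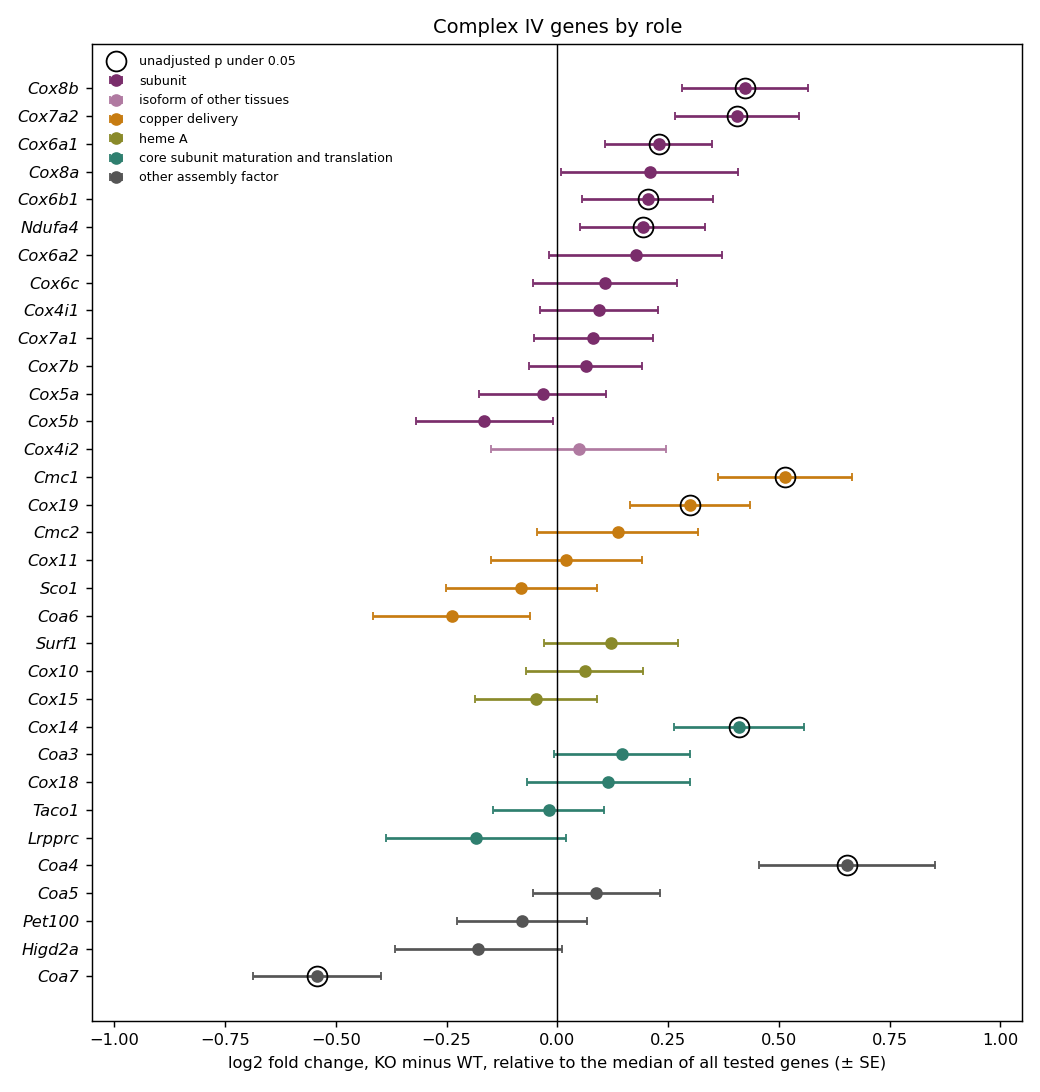
Relative log2 fold change (KO minus WT, x axis) of the 33 tested complex IV genes, grouped by role, with bars of 1 SE from limma (4 KO and 4 WT libraries). Black rings mark the 10 genes with an unadjusted p under 0.05, and the subunits lie between -0.16 and 0.42 whereas the assembly factors spread from -0.54 to 0.65.

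Among the subunits, Cox8b and Cox7a2 had the highest values. Cox8b, the heart and skeletal muscle form of subunit 8 (chromosome 7 from 140898945 to 140900446 in GENCODE M21 on GRCm38), stood at 4516, 4108, 4208 and 4459 RPM in KO 1 to KO 4, against 2427, 3105, 2793 and 3608 RPM in WT 1 to WT 4. All KO libraries lay above all WT libraries, and KO varied less than WT (196 against 500.4 RPM, SD). The relative log2 fold change was 0.42 (SE 0.14, adjusted p = 0.0799 in limma). Groups that do not overlap, with KO higher, were found in 6 of the 33 genes (Cox8b, Cox7a2, Cox6a1, Cox14, Cox19 and Cmc1), against a background of 7.5%. With TMM factors they were found in 3, Cox8b, Cox19 and Cmc1, against a background of 3.54%. Cox8b is also abundant in brown fat, and the adipocyte markers (Adipoq, Plin1, Cidec, Ucp1 and Lep) summed to between 1.43 and 9.34 RPM in KO and between 1.78 and 8.04 RPM in WT. Ucp1, the defining brown fat gene, was at 0 in every KO library and at 0.141 RPM in WT 1 alone among the WT libraries.

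Cox7a2, the form of subunit 7a found in most tissues (chromosome 9 from 79755361 to 79759878), stood at 671, 648, 612 and 474 RPM in KO, against 440.3, 377, 370.1 and 469.8 RPM in WT. The groups were barely apart, since KO 4 and WT 4 differed by a few RPM (a relative log2 fold change of 0.41, SE 0.14, adjusted p = 0.0799 in limma). KO 4 is the KO library with Xist, and without it Cox7a2 passed, as did Cmc1 and Coa4 (2.44% of all tested genes; range of adjusted p over the 22 alternatives 0.00998 to 0.448). Cox6a1, the widespread form of subunit 6a (chromosome 5 from 115345642 to 115348981), held 198, 164, 187 and 182 RPM in KO, against 138, 133, 154 and 144 RPM in WT. The groups did not overlap and the relative log2 fold change was 0.23 (SE 0.12, adjusted p = 0.171 in limma). Of the runs of 50 bases in Cox6a1 transcripts, 9.16% also occur in AC148174.2, so reads of the pair could not be told apart if the amplicon lies there.

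Ndufa4, a subunit first assigned to complex I and now placed in complex IV, stood at 3000.0, 3438, 3132 and 2460.2 RPM in KO, against 2117, 2488, 2317 and 2691 RPM in WT. KO 4 lay within the WT range (a relative log2 fold change of 0.19, SE 0.14, adjusted p = 0.281 in limma). Without KO 2 the value was 0.12, the lowest when single libraries were left out. Ndufa4 was no longer under an unadjusted p of 0.05 without any 1 of KO 1, KO 2, KO 3, WT 1, WT 2 and WT 3. Cox6b1, a subunit on the side that faces cytochrome c, held 1217, 1064, 1233 and 1308 RPM in KO, against 1064, 743, 899 and 1175 RPM in WT. These groups overlapped as well, with KO 2 and WT 1 at the same level (0.20, SE 0.15, adjusted p = 0.29 in limma). Without WT 2, its lowest library, the relative log2 fold change of Cox6b1 was 0.076 and no longer under an unadjusted p of 0.05 (adjusted p = 0.558 in limma). Cox6b1 also lost that level without KO 1, KO 3, KO 4 or WT 3.

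The other subunits outside the isoform pairs lay closer to the median gene. Cox5a and Cox5b, which sit on the matrix side of the complex, averaged 2228 ± 335 and 704 ± 86.4 RPM in KO and 2079.96 ± 237 and 731 ± 160.5 RPM in WT (SD, n = 4). Their relative log2 fold changes were -0.03 and -0.16 (adjusted p = 0.785 and 0.924 in limma), and Cox5b shares 11.9% of its runs of 50 bases with Gm11273. Cox7b, an X-linked subunit, averaged 1980.4 ± 245 RPM in KO and 1726 ± 46.7 RPM in WT (0.06, adjusted p = 0.475), and Cox6c 16.3 ± 2.4 RPM in KO and 13.7 ± 1.82 RPM in WT (0.11, adjusted p = 0.489).

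Summed over the 13 subunits, KO libraries held 17022 to 18230 RPM and WT libraries 13907 to 15642 RPM. Without Cox8b, which took the most reads, the sums were 12564 to 13731 RPM in KO and 10897 to 12034 RPM in WT. Divided by the TMM factors, the sums of all 13 were 15745 to 18642 RPM in KO and 14335 to 15600 RPM in WT, and without Cox8b they overlapped (12052 to 14024 RPM in KO and 11156 to 12384 RPM in WT). The 19 assembly factors overlapped on either scale, at 1557 to 1833 RPM in KO and 1395 to 1665 RPM in WT as deposited. Endothelial markers (8 of 8 above the floor of 3 reads, all 8 with a positive relative log2 fold change) also stood apart as deposited. Of the 8, 6 were higher at an unadjusted limma p under 0.05 (background 13.1%), and 0 passed after adjustment. The endothelial markers summed to 481 to 668 RPM in KO and 321 to 471 RPM in WT. KO 4 was the lowest KO library and WT 4 the highest WT library. Divided by their TMM factors (1.041 and 1.003), KO 4 lies below WT 4, so the endothelial sums overlap on that scale. Macrophage markers (Cd68, Adgre1, Csf1r and C1qa) summed to 14.3 to 18.6 RPM in KO and 7.56 to 13.7 RPM in WT, with C1qa at 0 or 1 read in every library. Of the 3 tested, Cd68 alone was above 0 (1.01, adjusted p = 0.0192 in limma), while Adgre1 was at -0.16 and Csf1r at -0.06. The myofibre markers went the other way (0 of 7 above 0, median -0.40), as did the tendon markers (0 of 4 above 0, median -0.57), among which Scx was lower (-1.24, adjusted p = 0.0164 in limma). Of the 6 slow fibre markers analysed, 4 (Tnni1, Tnnc1, Tnnt1 and Atp2a2) were higher at an unadjusted limma p under 0.05, where the background was 13.1%. Tnnc1 and Tnnt1 were low, at 1.13 to 2.99 and 0.998 to 1.62 RPM in WT. Myh7, also on that list, was not analysed here. Myl2 and Myl3 lay below 0, at -0.66 and -0.41, and the median of the 6 was 0.46. The sum of the 6 overlapped, at 139.6 to 254 RPM in KO and 151 to 316 RPM in WT. Of that sum, Myl3 made up 69.96 to 152 RPM in KO and 103 to 179 RPM in WT. The part of these shifts in the subunit sums was not tested.

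**Figure D2:**
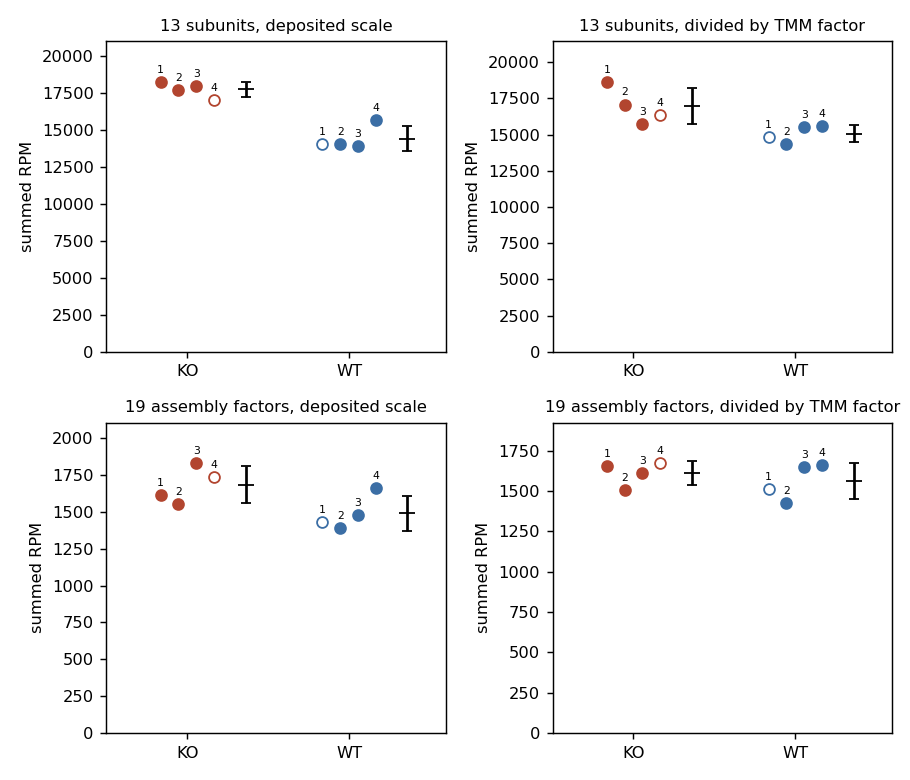
Summed RPM (y axis, from 0) of the 13 subunits (top) and the 19 assembly factors (bottom) in each KO and WT library, on the deposited scale (left) and divided by the TMM factor of each library (right). Numbers are replicate numbers, open circles the libraries with Xist above 10 RPM, and the bar beside each group its mean ± SD (n = 4); the lowest deposited subunit sum of KO is 17022 RPM and the highest of WT 15642 RPM.

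The second question concerned the isoform pairs. In each library the log2 ratio of the muscle or inducible form over the widespread form was taken on RPM + 1 and its group means were compared. The added 1 weighs on the ratios of Cox8a and Cox4i2, which are low. In none of the 4 pairs that could be tested did the ratio pass the test. With 4 libraries in each group the exact p cannot fall below 0.0286. After adjustment over the 4 pairs, a single pair could therefore not have passed even with its groups fully apart. For Cox7a1 over Cox7a2 the log2 ratio was -0.03, -0.17, 0.28 and 0.40 in KO, against 0.45, 0.55, 0.34 and 0.45 in WT. KO 1 and KO 2 were the lowest, KO 3 was below every WT library, and KO 4 was above WT 3 alone. The difference was -0.32 (SE 0.14, exact two-sided permutation p = 0.0571, adjusted over the 4 pairs 0.229, n = 4 each). Cox7a1, the muscle form, was itself little apart, at 659, 575, 745 and 627 RPM in KO and 602, 552, 468 and 641 RPM in WT (a relative log2 fold change of 0.08, SE 0.13, adjusted p = 0.458 in limma).

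Cox6a2, the muscle form of subunit 6a, ranged widely, at 1643, 1803, 1409 and 1088 RPM in KO and 1669.8, 1065, 1292 and 852 RPM in WT (a relative log2 fold change of 0.18, SE 0.19, adjusted p = 0.451 in limma). WT 1, which has Xist, lay above 3 of the KO libraries, and among the 6 libraries without Xist the gene passed (adjusted p = 0.0389, over all 22 alternatives 0.0389 to 0.877). The relative log2 fold change was 0.0032 without WT 4 and 0.35 without WT 1, the ends of its range when single libraries were left out. The log2 ratio of Cox6a2 over Cox6a1 was 3.05, 3.45, 2.91 and 2.58 in KO and 3.58, 2.996, 3.06 and 2.56 in WT. These overlapped throughout, with a difference of -0.05 (SE 0.28, exact permutation p = 0.771, adjusted 0.83), and the difference turned to 0.27 among the 6 libraries without Xist.

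Subunit 8 rests on few reads of its widespread form. The Cox8a amplicon gave 18, 14, 19 and 29 reads in KO (2.96, 2.93, 3.39 and 3.98 RPM) and 12, 14, 21 and 17 reads in WT (1.69, 2.34, 2.99 and 2.75 RPM), so its level is imprecise. Its relative log2 fold change was 0.21 (SE 0.20, adjusted p = 0.417 in limma). The log2 ratio of Cox8b over Cox8a was 10.16, 10.03, 9.90 and 9.81 in KO and 9.82, 9.86, 9.45 and 9.91 in WT, a difference of 0.21 (SE 0.13, exact permutation p = 0.2, adjusted 0.4). With no pseudocount the difference was 0.088 (exact permutation p = 0.686), and with a pseudocount of 5 it was 0.39 (exact permutation p = 0.0286, adjusted 0.114). Without WT 3, the lowest library, it was 0.11.

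Cox4i2, a form of subunit 4 known from lung and from oxygen-sensing and vessel wall cells, was low at 7.56, 5.66, 4.82 and 5.91 RPM in KO and 6.35, 4.34, 6.13 and 4.05 RPM in WT (a relative log2 fold change of 0.05, SE 0.20, adjusted p = 0.692 in limma). Its widespread partner Cox4i1 stood at 1461, 1409.8, 1311 and 1132 RPM in KO and 1009, 1189, 1058 and 1307 RPM in WT (0.09, SE 0.13, adjusted p = 0.425). The log2 ratio of Cox4i2 over Cox4i1 was -7.42, -7.73, -7.82 and -7.36 in KO and -7.10, -7.80, -7.21 and -8.02 in WT, a difference of -0.05 (SE 0.25, exact permutation p = 0.83). Its sign flipped in several of the alternatives. The pericyte marker Rgs5 stood at 183 to 323 RPM in KO and 159 to 244 RPM in WT. It is 1 of 7 pericyte and smooth muscle markers, with Kcnj8, Abcc9, Notch3, Myh11, Acta2 and Pdgfrb. Of these, 6 had a relative log2 fold change above 0 (median of the 7 0.10), while Acta2 was at -0.55. The sum of the 7 overlapped, at 5646 to 9069 RPM in KO and 7108 to 11955 RPM in WT. Acta2 made up most of it, at 5032 to 8575 RPM in KO and 6697 to 11475 RPM in WT, so the sum mainly follows Acta2.

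**Figure D3:**
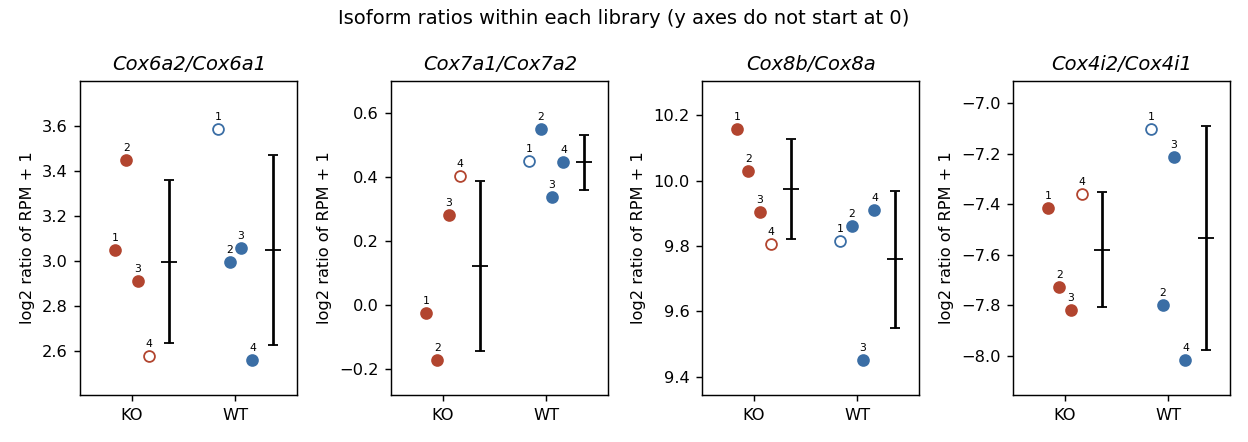
Log2 ratio of RPM + 1 (y axes, not from 0) for Cox6a2 over Cox6a1, Cox7a1 over Cox7a2, Cox8b over Cox8a and Cox4i2 over Cox4i1 in each KO and WT library, with replicate numbers, open circles for libraries with Xist above 10 RPM, and group mean ± SD (n = 4). Every pair overlaps between the groups, and the KO points of Cox7a1 over Cox7a2 reach down to -0.17 while the lowest WT point is 0.34.

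The remaining isoforms were at or near the limit of detection. Cox6b2, the testis form of subunit 6b, had 3, 2, 3 and 11 reads in KO and 8, 6, 4 and 0 reads in WT. Cox7b2 had 1 read in WT 3 and none elsewhere, and Cox8c had 1 read in KO 1 and none elsewhere. A count of 0 allows up to 3 reads, which is 0.412 to 0.628 RPM depending on the library, so no comparison was made for these 3 genes.

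Among the assembly factors the values spread further, and the largest relative log2 fold changes in either direction were those of Coa4 and Coa7. Among the factors grouped under copper delivery, Cmc1, a small cysteine-rich protein that in human cells binds newly made Cox1 (chromosome 9 from 118064522 to 118150177), held 36.6, 31.8, 42.7 and 28.3 RPM in KO, against 22.1, 21.7, 20.7 and 22.5 RPM in WT. The WT libraries lay within 2 RPM of each other and every KO library exceeded them (a relative log2 fold change of 0.51, SE 0.15, adjusted p = 0.0575 in limma). DESeq2 called Cmc1 (adjusted p = 0.0463), as did the fit with a term for Xist (0.0365) and the 6 libraries without Xist (0.0178), and adjusted p ran up to 0.365 in the other alternatives. Cmc1 overlaps Azi2 on the other strand, and no source used here says whether reads were counted by strand.

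Cox19, a copper-related factor in yeast (chromosome 5 from 139336189 to 139351418), held 123, 114, 127 and 109 RPM in KO, against 73.3, 95.0, 82.3 and 103 RPM in WT. These did not overlap (0.30, SE 0.14, adjusted p = 0.152 in limma). The other factors grouped under copper delivery overlapped between KO and WT. Coa6, which works with the Sco proteins in copper delivery, held 75.1, 74.1, 41.8 and 72.6 RPM in KO and 66.4, 76.965, 60.7 and 74.7 RPM in WT, and KO 3 alone was low (a relative log2 fold change of -0.24, SE 0.18, adjusted p = 0.791 in limma). Sco1, a copper chaperone, averaged 6.74 ± 0.314 RPM in KO and 6.55 ± 1.02 RPM in WT (-0.08, adjusted p = 0.922), and Cox11, which supplies copper to Cox1, 33.0 ± 6.09 RPM in KO and 29.7 ± 5.25 RPM in WT (0.02, adjusted p = 0.701). Cmc2 averaged 24.0 ± 5.23 RPM in KO and 19.8 ± 3.74 RPM in WT (0.14, adjusted p = 0.49).

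None of the 3 heme A genes separated the groups. Cox10, which makes heme O from heme, averaged 132 ± 12.5 RPM in KO and 116 ± 13.8 RPM in WT (0.06, adjusted p = 0.491 in limma). Cox15, which turns heme O into heme A, averaged 20.7 ± 0.95 RPM in KO and 19.5 ± 1.10 RPM in WT (-0.05, adjusted p = 0.817). Surf1, which acts after them and is mutated in Leigh syndrome, averaged 19.6 ± 2.20 RPM in KO and 16.4 ± 1.80 RPM in WT (0.12, adjusted p = 0.43).

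Cox14, which holds newly made Cox1 in an assembly intermediate (chromosome 15 from 99725618 to 99728136), stood at 389.9, 361, 449 and 365 RPM in KO, against 241, 271, 226 and 352 RPM in WT. WT 4 came close to the KO libraries, the groups did not overlap, and the call was reached without WT 4 alone, where 0.505% of all tested genes passed (a relative log2 fold change of 0.41, SE 0.15, adjusted p = 0.0929 in limma, over the alternatives 0.0439 to 0.55). Coa3, its partner in the same intermediate, averaged 29.7 ± 4.52 RPM in KO and 24.3 ± 2.31 RPM in WT (0.15, adjusted p = 0.393).

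Lrpprc, which stabilises mitochondrial messenger RNAs, held 118, 94.5, 149 and 183 RPM in KO and 109.6, 115, 147 and 194 RPM in WT (a relative log2 fold change of -0.18, SE 0.20, adjusted p = 0.912 in limma), with a spread as wide within either group. Taco1, a translational activator of Cox1, was even across libraries, with 73.1 ± 1.86 RPM in KO and 68.0 ± 6.42 RPM in WT (-0.02, adjusted p = 0.701). Cox18, an insertase for Cox2, averaged 11.1 ± 2.63 RPM in KO and 9.05 ± 0.915 RPM in WT (0.12, adjusted p = 0.53).

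Coa4, a small protein of the space between the mitochondrial membranes (chromosome 7 from 100537071 to 100540369), stood at 17.6, 19.3, 16.8 and 14.3 RPM in KO, against 14.4, 8.85, 6.70 and 9.07 RPM in WT. WT 1, with Xist, was as high as KO 4, also with Xist, and the other WT libraries were all lower than any KO library. The relative log2 fold change was 0.65 (SE 0.20, adjusted p = 0.0741 in limma). It passed without WT 1 (1.42% of all tested genes), without KO 4, among the 6 libraries without Xist (adjusted p = 0.00452) and with a term for Xist (0.0452), with adjusted p of up to 0.41 in the other alternatives.

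Coa7, a factor of the intermembrane space (chromosome 4 from 108328140 to 108341544), had the lowest relative log2 fold change of the 33 genes and stood at 17.4, 14.5, 17.8 and 16.8 RPM in KO, against 22.1, 21.0, 22.2 and 24.5 RPM in WT. All KO libraries lay below all WT libraries, the sole such case among the 33 genes against a background of 1.61%, and this was also so with TMM factors (background 3.72%). The relative log2 fold change was -0.54 (SE 0.14, adjusted p = 0.179 in limma), and DESeq2 called it (adjusted p = 0.0429). DESeq2 called Cmc1 and Coa7 among the 33 genes, against 2.16% of all tested genes. The other assembly factors of this group overlapped between KO and WT. Higd2a, which takes part in joining complex IV to other respiratory complexes, averaged 257 ± 45.1 RPM in KO and 272 ± 78.0 RPM in WT (-0.18, adjusted p = 0.915 in limma). Pet100 averaged 246 ± 31.8 RPM in KO and 239 ± 43.2 RPM in WT (-0.08, adjusted p = 0.903) and Coa5 53.6 ± 8.03 RPM in KO and 45.8 ± 3.63 RPM in WT (0.09, adjusted p = 0.471).

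**Figure D4:**
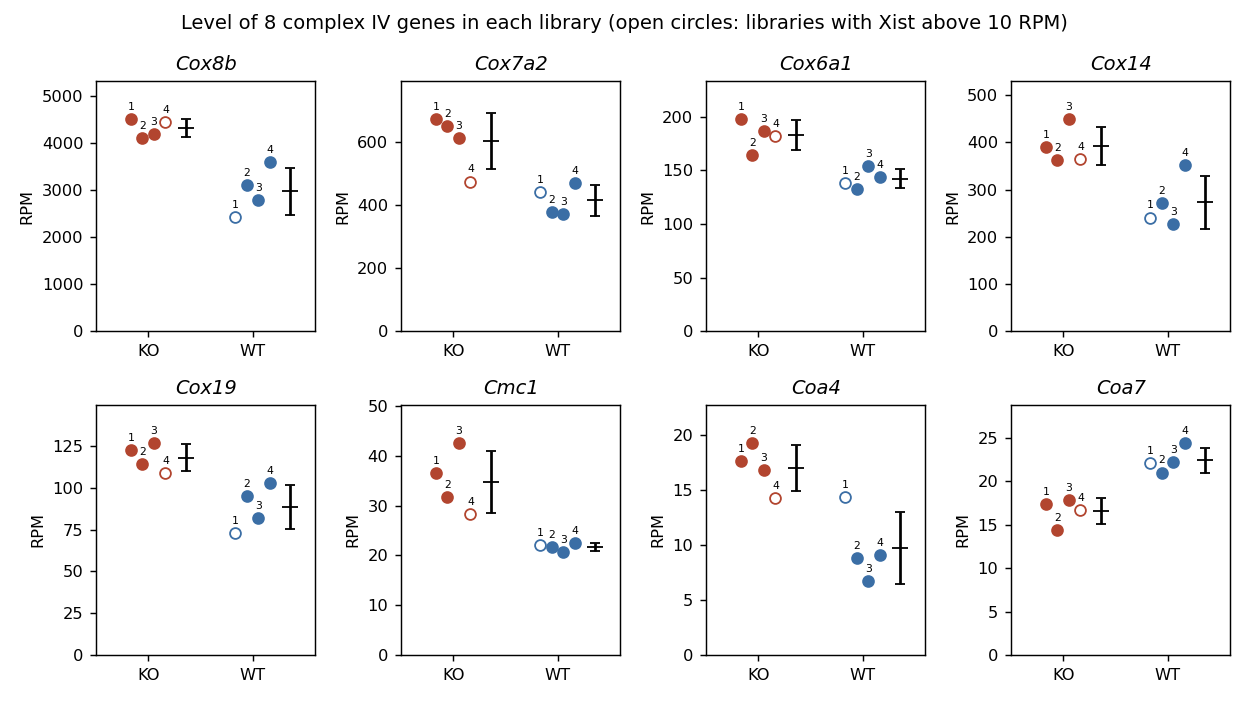
RPM (y axes, from 0) of Cox8b, Cox7a2, Cox6a1, Cox14, Cox19, Cmc1, Coa4 and Coa7 in each KO and WT library, with replicate numbers, open circles for libraries with Xist above 10 RPM, and group mean ± SD (n = 4). KO lies above WT in Cox8b, Cox7a2, Cox6a1, Cox14, Cox19 and Cmc1, below it in Coa7, and WT 1 of Coa4 (14.4 RPM) lies beside KO 4 (14.3 RPM).

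The number of calls depended on how the libraries with Xist were treated. With a term for the libraries with Xist, Coa4, Cmc1, Cox7a2 and Cox8b passed, 4 of 33 (12.1%) against 2.12% of all tested genes. Among the 6 libraries without Xist, Coa4, Cmc1, Cox6a2 and Cox7a2 passed, again 4 of 33, against 3.63%. In both fits every call was higher in KO. With WT 3 and KO 3 left out, whose TMM factors of 0.898 and 1.139 are the farthest apart, 0 of the 33 passed (0.0812% of all tested genes).

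Genes that work with complex IV but lie outside the rule were read from a list of 27, with 17 found in the table and 16 tested. None passed in limma. At an unadjusted limma p under 0.05, 3 were higher (Slirp, Slc31a1 and Ppargc1b, 18.8% against the background of 13.1%). In the other direction 1 of the 16 was lower (Mss51), against a background of 3.07%. In edgeR Mss51 alone of the 16 passed, where 0.83% of all tested genes did. Mss51, named after the yeast activator of Cox1 translation and in mammals a gene of skeletal muscle, had 29.4, 14.7, 45.9 and 12.9 RPM in KO, against 30.9, 139, 63.4 and 106 RPM in WT. WT 1, with Xist, lay within the KO range, and the other WT libraries were above every KO library (a relative log2 fold change of -1.78, SE 0.40, adjusted p = 0.0645 in limma). It passed with TMM factors (0.938% of all tested genes), in edgeR (adjusted p = 0.0408) and with a term for Xist (0.00269). It passed in 6 of 22 alternatives, which include the 6 libraries without Xist and the omission of WT 1 or of KO 3, with adjusted p between 0.00177 and 0.411.

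Slirp, the binding partner of Lrpprc, held 57.7, 67.9, 74.6 and 44.6 RPM in KO, against 39.5, 44.4, 42.3 and 53.4 RPM in WT (a relative log2 fold change of 0.29, SE 0.16, adjusted p = 0.227 in limma). KO 4 lay within the WT range. Slc31a1, the copper importer of the cell surface, held 49.8, 45.9, 57.1 and 50.5 RPM in KO, against 38.9, 35.1, 32.5 and 47.8 RPM in WT (0.27, SE 0.15, adjusted p = 0.2), with KO 2 below WT 4. Ppargc1b, a coactivator of mitochondrial genes, held 39.6, 40.4, 34.6 and 35.6 RPM in KO, against 41.3, 26.7, 25.8 and 24.5 RPM in WT, where WT 1 stood above every KO library (0.24, SE 0.17, adjusted p = 0.3). The regulators Ppargc1a, Nrf1, Gabpa and Gabpb1 had relative log2 fold changes of 0.17, 0.04, 0.09 and -0.07 (adjusted p = 0.43, 0.591, 0.508 and 0.906 in limma).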

How the data were processed

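The authors deposited RPM, reads per 1000000 reads, from the Ion AmpliSeq Transcriptome Mouse panel, per the labels. The tool named, per the submitters' processing notes, is the Transcriptome Analysis Console, and no source used here gives the aligner, build, read filters or strand setting. Groups and replicate numbers come from the sample titles and columns from the barcode in each description. Whether each library is its own animal is unstated, and p-values then cover library-to-library spread alone, which may be technical.

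All values were whole multiples of 1 read (tolerance 0.05 reads), which gave totals of 4774602 to 7281574 reads. Replicate pairs all differed by more than counting noise (lowest chi-square over degrees of freedom 8.02). Floors and counts cover counting error only.

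The main test was limma 3.58.1 (R 4.3.3) on log2(RPM + 1), for genes reaching 1 RPM in 4 or more libraries (variance trend, two-sided, Benjamini-Hochberg over 11087 genes). Such fold changes understate the change of low genes. Isoform ratios were compared by exact permutation over 70 assignments (scipy 1.17.1). Recovered reads went into edgeR 4.0.16 (quasi-likelihood, TMM) and DESeq2 1.42.0. The fits were tested on simulated data. Members, lists and alternatives were chosen with earlier results of these data known. Values in every library are given for members with an unadjusted p under 0.05, members of tested isoform pairs, and the 3 highest and 3 lowest fold changes. Partner genes are named where the unadjusted p is under 0.05, and the regulators Ppargc1a, Nrf1, Gabpa and Gabpb1 were added after their values were seen. Of the 36 genes, 14 overlap a gene on the other strand in GENCODE M21, 1 overlaps one on the same strand, and 12 share a run of 50 bases with another gene's transcript.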

Additional observations from a re-analysis of the deposited data

Results flagged for a closer look

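Within groups of 4 libraries, 50 sets of values were checked for a library far from the other 3, and chance marks about 1 in 20 such sets. Coa6 in KO was marked because KO 3, at 41.8 RPM, lay far below the other KO libraries at 72.6 to 75.1 RPM (gap over range 0.927). Ppargc1b in WT was marked because WT 1, at 41.3 RPM, lay far above the other WT libraries at 24.5 to 26.7 RPM (0.866).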

How the results depend on the processing

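Of the 33 complex IV genes, 0 passed in limma as reported, 2 in DESeq2, 4 with a term for Xist and 4 in the 6 libraries without Xist, and between 0 and 3 when each library was left out in turn. Cmc1, Coa4 and Cox7a2 passed without KO 4, Coa4 without WT 1 and Cox14 without WT 4. All tested genes gave 89 calls, against 12 with no filter, 240 in DESeq2, 235 with the Xist term, 403 without the Xist libraries, 9 without WT 3 and KO 3, and 16 to 270 when single libraries were left out. With TMM factors there were 39 higher and 65 lower calls in place of 58 and 31. The Sdhc difference ranged between -711 and -637 RPM without single libraries, with an exact p of 0.0571, the smallest that 3 against 4 allows. Same-numbered KO and WT libraries did not deviate together (correlations -0.12 to 0.08), and the fit with the replicate number as a block gave 0 calls among the 33 and 81 among all genes. Paired by number, the difference in the ratio of Cox7a1 over Cox7a2 was -0.32 (exact sign-flip p = 0.125). KO was lower in every pair of libraries, and this p is the smallest that 4 paired differences allow, so it could not have been under 0.05.

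Some signs turned. The ratio of Cox6a2 over Cox6a1 came to 0.27 and that of Cox4i2 over Cox4i1 to 0.023 without the Xist libraries, while Cox4i2 over Cox4i1 gave 0.14 without WT 3 and KO 3. Leaving out single libraries gave -0.22 to 0.13 for Cox6a2 over Cox6a1 and -0.21 to 0.10 for Cox4i2 over Cox4i1. Relative log2 fold changes turned for Coa6 (0.0055 without KO 3, leave-one-out range -0.34 to 0.0055), Cox4i2 (-0.082 without KO 1, -0.026 without WT 2 and -0.062 without WT 4, leave-one-out range -0.082 to 0.172) and Cox7a1 (-0.0039 without WT 3 and KO 3). The cause was not tested. On the deposited scale, Cox15, Cox5a, Pet100, Sco1 and Taco1 lay above 0 and with TMM factors below it. Depth limits Cox8a, at 12 to 29 reads in a library, and the 3 isoforms that were not tested.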
